A study of Mus musculus with 2 samples.

Results

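The CCN proteins, the thrombospondins and tenascin C are secreted matricellular proteins, which sit in the extracellular matrix and act on cells rather than forming its fibres. Ccn1 to Ccn5, Thbs1 to Thbs4 and Tnc were taken by gene symbol, and all 10 were present among the 33696 genes listed for both libraries. The 10 were taken by family and name, with earlier results of these data known.

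Many CCN proteins and thrombospondins bind integrins, and CCN1 and CCN2 are classical outputs of YAP/TAZ with the TEAD transcription factors, which respond to cell tension and spreading. THBS1 is known for activating latent TGF-β and for restraining blood vessel growth, and tenascin C is known from the stroma of developing and remodelling tissues, the mammary gland included. Fibroblasts are a main source of such proteins in the mammary stroma, where the matrix around ducts is rebuilt during puberty.

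The measurements were single-cell RNA-seq (10x Chromium GEM-X 3′ v4) of stromal cells from the mammary gland of wild-type C57BL/6 female mice. One library came from pubertal mice 4 weeks old and the other from adult virgin mice 9 weeks old. Each library pooled 2 females and is labelled replicate 2 of its stage, and no treatment was given. In both, cells lacking lineage markers (CD31, CD45 and TER-119) and CD24 had been sorted, a gate that takes out endothelial, immune, erythroid and epithelial cells. With 1 library per stage and the cells of the 2 females not told apart, stage differences had no replicate check, no p-value was computed, and every interval given here is a 95% interval of counting error alone.

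Cells with at least 500 genes and at most 10% mitochondrial transcripts numbered 21534 at puberty and 22972 in the adult, with median depths of 11763 and 10842 UMIs (unique molecular identifiers, each marking 1 captured transcript). A total of 145 cell barcodes occurred in both libraries. Cells with a UMI of Pdgfra, the pan-fibroblast receptor gene, numbered 18878 and 20999, and 99.9% and 99.6% of them held Dcn, a fibroblast proteoglycan. Among these Pdgfra+ cells 5 overlapping marker gates were drawn: Pi16 with Dpp4 (mesenchymal progenitor markers, 13983 and 8853 cells), Gdf10 or Fmo2 (7462 and 10066), Bmp5 (577 and 1883), at least 2 UMIs of Fabp4 (1779 and 2553) and Crabp1 (289 and 2672). The Pi16+Dpp4+ gate held 74.1% of Pdgfra+ cells at puberty and 42.2% in the adult. Cells outside every gate numbered 846 and 2842. Pdgfra-negative cells with Myh11 or Rgs5, called mural here for vessel smooth muscle and pericytes, numbered 783 and 457. Acta2, a smooth muscle actin gene, was found in 92.1% and 76.8% of them. Levels are given as CPM, a gene's summed UMIs over all UMIs of the same cells at the usual CPM scale. They come from transcript 3′ ends and are not scaled by length, so genes were not ranked against each other.

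The gene starts of Ccn1 and Thbs4 are shown because CCN1 is a classical TEAD output and Thbs4 had the largest stage ratio of the 10. The RefSeq promoter table (GRCm38.p6) matched 5 members, and the 250 bases before each start were searched on both strands for GGAATG, the core of the TEAD motif, whose reverse is CATTCC. Capitals mark it in these sequences, written 5′ to 3′ on the gene's strand:
Ccn1, chr3:145649986-145650235, minus strand: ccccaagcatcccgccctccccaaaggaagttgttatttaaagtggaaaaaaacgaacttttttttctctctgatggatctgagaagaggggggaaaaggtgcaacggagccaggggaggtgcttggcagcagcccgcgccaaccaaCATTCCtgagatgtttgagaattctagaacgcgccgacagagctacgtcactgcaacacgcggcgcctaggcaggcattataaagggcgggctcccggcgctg
Thbs4, chr13:92794819-92795068, minus strand: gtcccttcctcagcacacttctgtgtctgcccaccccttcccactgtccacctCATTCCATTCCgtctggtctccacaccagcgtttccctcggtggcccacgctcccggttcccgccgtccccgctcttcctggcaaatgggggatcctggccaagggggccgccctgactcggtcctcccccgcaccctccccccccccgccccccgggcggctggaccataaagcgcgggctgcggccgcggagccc
The Ccn1 stretch held 1 match, beginning 103 bases before the start, beside a TATAAA box at 25 bases. The Thbs4 stretch held 2 matches, at 197 and 192 bases, which share 1 base. The windows of Thbs2, Thbs3 and Tnc held none, against 12.6% of the 32851 promoters in the table. None of the 5 held the AP-1 motif TGANTCA, found in 6.75% of promoters. These are matches of letters and say nothing of binding. Ccn2, Ccn3, Ccn4, Ccn5 and Thbs1 were not analysed for sequence here.

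The first question was how these transcripts differed between the pubertal and the adult fibroblast compartment as a whole. Of the 10 members, 4 were at least 1.5-fold higher in the adult, Ccn2, Ccn4, Thbs4 and Tnc, and the same 4 were at least 2-fold higher (4.4% of all genes). Among all 8645 genes with 10 CPM or more in either library, 12.0% were at least 1.5-fold higher and 5.09% at least 1.5-fold lower, and their median log2 ratio was 0.13. Under TMM scaling, which trims genes that differ most, the median was -0.01 and these shares were 8.07% and 7.39%, a split of higher against lower calls of 52.2% in place of 70.3%, with the same 4 members 1.5-fold higher. No member was 1.5-fold lower, the lowest ratio being that of Ccn5, which passed that limit under TMM scaling.

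Thbs4, a thrombospondin of tendon and muscle matrix (chr13:92751590-92794818), stood at 45.6 CPM (44.7 to 46.4) at puberty and 214 CPM (213 to 216) in the adult, a ratio of 4.71 (4.61 to 4.80). Tnc, which encodes tenascin C (chr4:63959785-64047015), stood at 22.1 and 80.8 CPM, a ratio of 3.65 (3.54 to 3.77). Ccn4, also known as WISP1 and a WNT-inducible member (chr15:66891320-66923201), stood at 4.70 and 12.7 CPM, a ratio of 2.70 (2.52 to 2.89). Ccn2, the connective tissue growth factor gene (chr10:24595442-24598683), stood at 36.0 and 84.3 CPM, a ratio of 2.34 (2.28 to 2.40). For all 4 the adult library was the higher and the counting intervals lay apart.

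The other members differed less. Ccn1, the immediate early gene once called Cyr61 (chr3:145646976-145649981), was at 735 and 709 CPM, a ratio of 0.965. Thbs1 (chr2:118111876-118127133) was at 384 and 418 CPM, a ratio of 1.09 that turned to 0.988 under TMM scaling. Thbs3, a pentameric thrombospondin (chr3:89215180-89226837), was at 75.7 and 68.1 CPM, a ratio of 0.899. The 3 genes with the lowest ratios were Thbs2, an anti-angiogenic collagen-fibril regulator (chr17:14665500-14694235), Ccn3, known as NOV (chr15:54745702-54754039), and Ccn5, a CCN protein lacking the C-terminal domain (chr2:163820861-163833146). Thbs2 was at 431 and 328 CPM (ratio 0.761), Ccn3 at 42.1 and 31.7 CPM (ratio 0.753) and Ccn5 at 17.2 and 12.6 CPM (ratio 0.728, and 0.660 under TMM scaling).

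**Figure D1:**
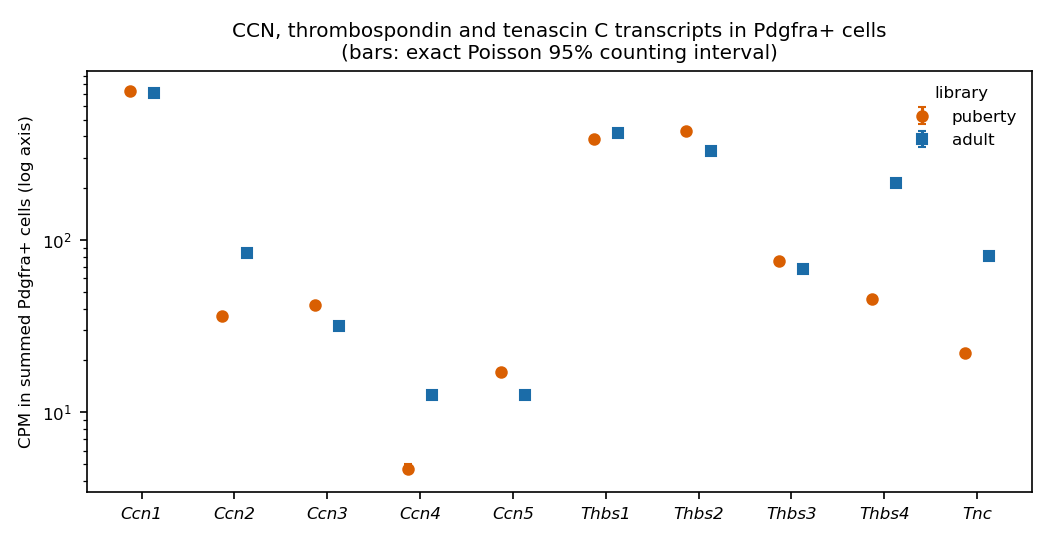
CPM (log axis) of each member in the summed Pdgfra+ cells of the pubertal (circles) and adult (squares) library, with exact Poisson 95% counting intervals that are mostly smaller than the symbols. Ccn2, Ccn4, Thbs4 and Tnc sit apart with the adult value higher, from 36.0 to 84.3 CPM for Ccn2 up to 45.6 to 214 CPM for Thbs4.

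Since the gates differed in size between the libraries, the cells were split by their combination of gates and the CPM values recomputed at a common make-up. With both libraries at the pubertal make-up, Thbs4 was 2.86-fold, Tnc 2.00-fold, Ccn2 1.66-fold and Ccn4 1.08-fold higher in the adult. With both at the adult make-up, the ratios were 1.69 for Thbs4, 0.987 for Tnc, 1.53 for Ccn2 and 0.892 for Ccn4. Thbs4 and Ccn2 therefore stayed above 1.5-fold at either make-up, whereas the Ccn4 ratio lay near 1 at both and that of Tnc depended on which was used. The ratio of Ccn3 passed from 0.753 to 1.24 and 1.16, and that of Thbs1 from 1.09 to 0.712 and 0.803. The adult make-up rests on few pubertal cells, since only 289 of them held Crabp1. In summed counts, more cells of a kind and more RNA per cell of that kind cannot be told apart, and gates of 1 or 2 UMIs do not remove this.

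**Figure D2:**
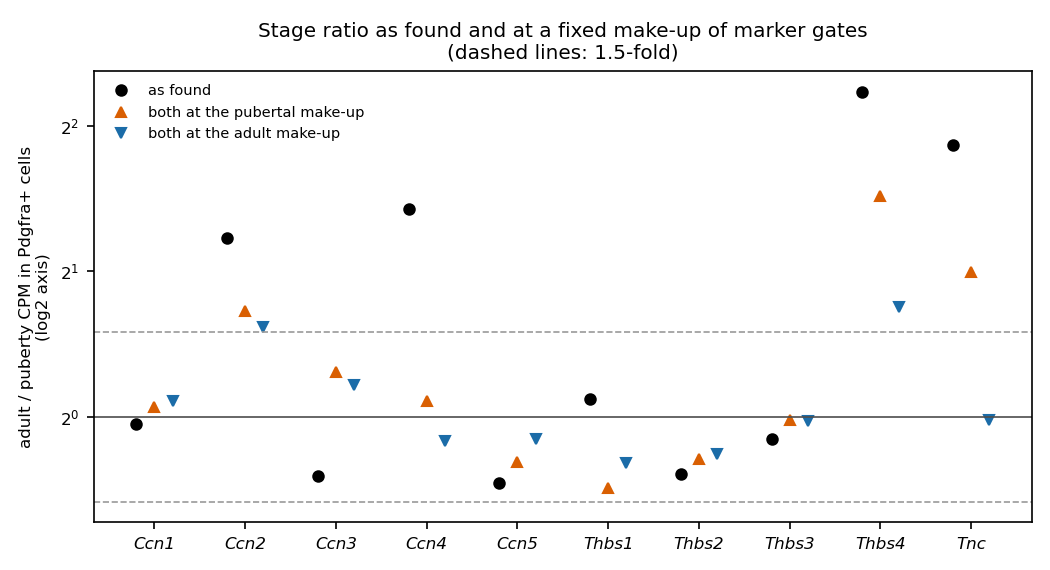
Adult over puberty CPM ratio (log2 axis) of each member in Pdgfra+ cells as found (circles), and with both libraries at the pubertal (upward triangles) or adult (downward triangles) shares of the gate combinations; dashed lines mark 1.5-fold. Thbs4 and Ccn2 lie above the upper line in all 3, while Ccn4 moves from 2.70 to 1.08 and 0.892.

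The second question was in which fibroblasts each transcript was found. Thbs4 was unevenly spread. In Bmp5 cells it stood at 742 and 1374 CPM, against 22.7 and 90.2 CPM in the other Pdgfra+ cells of the same library, so that these cells, 3.06% and 8.97% of the total, held 51.8% and 62.0% of its UMIs. Of the members with 10 CPM or more on either side, 4 of 9 at puberty and 5 of 10 in the adult were at least 1.5-fold higher in Bmp5 cells, beside 6.05% and 5.18% of all genes tested. The lower ones there were Ccn3 in both libraries and Ccn4 in the adult, 1 of 9 (3.41% of genes) and 2 of 10 (6.79%). The study used Thbs4 and Bmp5 together to mark a fibroblast cluster, so their meeting here is no separate evidence. In the Frmpd4 or Chrm2 cells, a further gate of 1365 and 6960 cells, Thbs4 stood at 419 and 554 CPM, 26.7-fold and 9.67-fold over the other Pdgfra+ cells, and this gate held 68.1% and 81.7% of its UMIs. It was low in Fabp4 cells, at 5.88 and 31.2 CPM, and 117 of the 150 pubertal UMIs there came from 1 cell, without which the level was 1.29 CPM.

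Pi16+Dpp4+ cells showed the widest stage ratio of Thbs4 among the 5 gates, 22.5 against 233 CPM, or 10.3-fold (10.0 to 10.7), while Gdf10 or Fmo2 cells went from 36.2 to 140 CPM and Bmp5 cells had a ratio of 1.85. Crabp1 cells showed 63.7 and 53.0 CPM, and cells in no gate 273.2 and 272.9 CPM, a ratio of 0.999. Taking Pi16+Dpp4+ cells in no other gate, the ratio was 10.6, but in cells of the Bmp5 gate alone it was 1.06. Within Pi16+Dpp4+ cells, 3 of 9 members were 1.5-fold higher in the adult, Ccn2, Thbs4 and Tnc, beside 9.46% of all genes tested there, and none was 1.5-fold lower (3.86%). In Gdf10 or Fmo2 cells 3 of 10 were higher, Ccn4, Thbs4 and Tnc (10.7% of genes), and Ccn3 and Ccn5 were lower (5.72%). In Bmp5 cells 3 of 9 were higher, Ccn2, Ccn5 and Thbs4 (7.05%), and none lower (5.95%).

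Thbs4 was carried by few cells at a high level. Cells at 1000 CPM or more numbered 214 at puberty and 951 in the adult, 1.13% and 4.53% of Pdgfra+ cells, and they held 90.1% and 92.0% of its UMIs. Of these high cells 50.5% (43.6 to 57.4) and 64.0% (60.9 to 67.1) had Bmp5, 32.7% and 48.4% were Pi16+Dpp4+, and 27.6% and 13.4% lay in no gate. Of all Pdgfra+ cells, 3.06% and 8.97% had Bmp5, 74.1% and 42.2% were Pi16+Dpp4+, and 4.48% and 13.5% lay in no gate. Cells with both Bmp5 and Thbs4 numbered 172 and 967, and within them Thbs4 stood at 2602 and 2795 CPM. Among cells already holding both, the level thus differed by 1.07-fold (1.04 to 1.10), although this subset was drawn on Thbs4 itself.

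Tnc overlapped in part with Thbs4. Among the 5 gates, at puberty it was highest in Crabp1 cells, at 365 CPM against 15.9 CPM in the other Pdgfra+ cells, and lowest in Pi16+Dpp4+ cells, at 6.21 CPM. In the adult the Crabp1 cells were at 145 CPM, a stage ratio of 0.396 (0.374 to 0.420), while Pi16+Dpp4+ cells were at 30.8 CPM (ratio 4.96, 4.64 to 5.31) and Gdf10 or Fmo2 cells stood at 16.9 and 78.5 CPM. Bmp5 cells held 97.9 and 71.6 CPM (ratio 0.731, 0.670 to 0.798), Fabp4 cells 36.6 and 38.6 CPM, and cells in no gate 147 and 236 CPM. The Frmpd4 or Chrm2 gate held 78.1% of the adult Tnc UMIs, at 199.9 CPM against 25.8 CPM elsewhere, and 28.6% at puberty. That gate was drawn for a cell group named after Tnc in earlier results of these data, so these shares are no separate evidence. In Crabp1 cells 2 of 9 members, Tnc and Thbs2, were 1.5-fold lower in the adult (6.45% of all genes) and none was 1.5-fold higher (8.27%). The share of Crabp1 cells with Tnc did not follow the level and the intervals overlapped, 18.1% (13.8 to 23.0) and 18.7% (17.2 to 20.2) at an equal depth of 3000 UMIs.

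Ccn4 was also higher in Crabp1 cells. It stood there at 62.3 and 48.2 CPM against 3.65 and 7.31 CPM in the other Pdgfra+ cells, 17.1-fold (14.8 to 19.6) and 6.59-fold (6.14 to 7.08). The Crabp1 cells were 1.53% of Pdgfra+ cells with 23.7% of Ccn4 UMIs at puberty, and 12.7% with 49.9% in the adult. Within the gate the stage ratio was 0.774 (0.679 to 0.885), against 2.70 over all Pdgfra+ cells. In each library 3 of 10 members were 1.5-fold higher in Crabp1 cells, Ccn4, Thbs1 and Tnc, beside 18.5% and 10.7% of all genes. The lower ones were 3 at puberty (12.6%) and 5 in the adult (10.4%), Ccn3, Ccn5 and Thbs3 in both and Ccn2 and Thbs4 in the adult as well.

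Among the 5 gates Ccn2 was highest in Bmp5 cells of both libraries, at 152 and 348 CPM against 32.2 and 56.1 CPM in the other Pdgfra+ cells. It was lowest in Fabp4 cells, at 16.2 and 29.6 CPM. Pi16+Dpp4+ cells differed most between stages, 25.8 and 80.2 CPM, a ratio of 3.11 (3.0 to 3.22), whereas Crabp1 cells showed 49.3 and 55.7 CPM. The cells at 1000 CPM or more held 40.6% and 56.0% of the Ccn2 UMIs. Of 169 at puberty, 73.4% (66.0 to 79.9) had Gdf10 or Fmo2 and 14.2% (9.32 to 20.4) had Bmp5, and of 492 in the adult the shares were 43.7% (39.3 to 48.2) and 42.9% (38.5 to 47.4). Among all Pdgfra+ cells, 39.5% and 47.9% had Gdf10 or Fmo2, and 3.06% and 8.97% had Bmp5. Bmp5 was thus more frequent in the high cells of both libraries, and Gdf10 or Fmo2 at puberty alone.

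**Figure D3:**
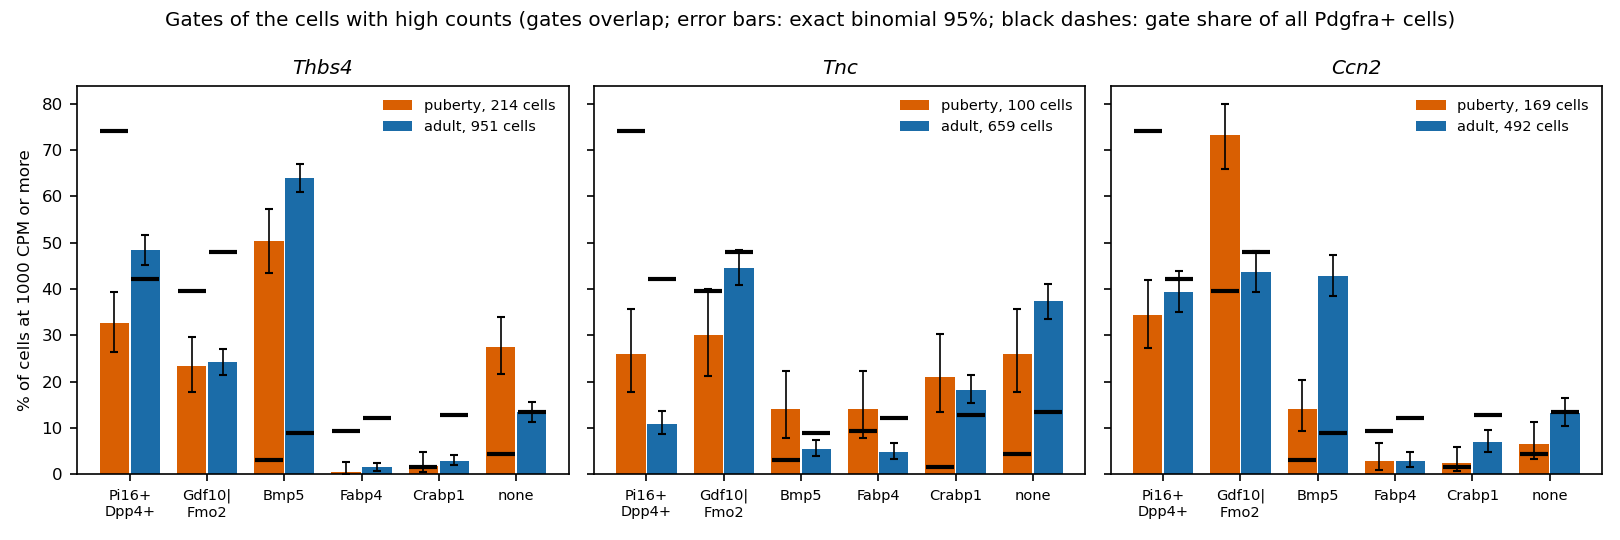
Percentage of the Pdgfra+ cells at 1000 CPM or more of Thbs4, Tnc or Ccn2 that passed each gate (bars, with exact binomial 95% intervals; gates overlap), beside the gate's share of all Pdgfra+ cells (black dashes). Bmp5 cells made up 50.5% and 64.0% of Thbs4-high cells against dashes at 3.06% and 8.97%. Most Ccn2-high pubertal cells (73.4%) had Gdf10 or Fmo2, against a dash at 39.5%.

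Ccn3 and Ccn5 were the members at least 1.5-fold higher in progenitor-marked cells of both libraries. Of the 10, 4 at puberty (9.27% of genes) and 2 in the adult (9.08%) were 1.5-fold higher in Pi16+Dpp4+ cells than in other Pdgfra+ cells. Those at puberty were Ccn1, Ccn3, Ccn5 and Thbs2. In Pi16+Dpp4+ cells 5 (13.4%) and 3 (11.5%) were 1.5-fold lower, Ccn4, Thbs1 and Tnc in both. Pi16+Dpp4+ cells held 96.3% of Ccn3 UMIs at puberty and 92.8% in the adult, at 52.8 and 60.3 CPM against 6.74 and 4.45 CPM in the other Pdgfra+ cells, 7.84-fold (7.06 to 8.72) and 13.5-fold (12.4 to 14.8). Within that gate the adult level of Ccn3 was the higher (ratio 1.14), in contrast to 0.753 over all Pdgfra+ cells. Ccn5 stood at 20.3 and 18.4 CPM in Pi16+Dpp4+ cells, 2.83-fold and 2.66-fold over the others. It was also 3.51-fold and 2.48-fold higher in cells with Pgr or Greb1, the progesterone receptor and an oestrogen target, at 36.6 and 25.4 CPM. That gate was drawn for a cell group named after Ccn5 in earlier results of these data, so this is no separate evidence. In Bmp5 cells Ccn5 stood at 24.0 and 38.7 CPM (ratio 1.61, 1.37 to 1.90), and in Gdf10 or Fmo2 cells at 23.7 and 11.8 CPM (ratio 0.498, 0.467 to 0.532). Against the other Pdgfra+ cells this was 1.41-fold and 3.96-fold in Bmp5 cells, more in the adult than in Pi16+Dpp4+ cells. For Gdf10 or Fmo2 cells it was 1.88-fold and 0.886-fold.

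Ccn1 was found at a high level in every gate. Over the 5 gates and the cells of no gate it ranged from 503 CPM in pubertal cells of no gate to 811 CPM in Pi16+Dpp4+ cells, where both libraries had 811 CPM and the ratio was 1.0 (0.992 to 1.01). In Pgr or Greb1 cells it stood at 961 and 881 CPM. In equal-depth counts the top 1% of cells held 6.41% and 7.15% of Ccn1 UMIs, in contrast to 89.4% and 48.3% for Thbs4 and 89.2% and 31.0% for Tnc.

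Thbs1 was lower in Pi16+Dpp4+ cells than in the other Pdgfra+ cells, at 310 against 629 CPM at puberty and 248 against 581 CPM in the adult. It was higher in Bmp5 cells (973 and 738 CPM), in Fabp4 cells (749 and 667 CPM) and in Crabp1 cells (608 and 617 CPM). The summed smooth muscle markers (Acta2, Tagln, Cnn1, Actg2 and Des) also stood at 365 CPM in pubertal Bmp5 cells and 384 CPM in pubertal Fabp4 cells, against 52.0 CPM in all pubertal Pdgfra+ cells. Without the cells holding Myh11 or Rgs5, a check added after the values were seen, Thbs1 was still 2.64-fold higher in pubertal Bmp5 cells (2.67-fold with them) and 2.19-fold higher in pubertal Fabp4 cells (2.21-fold with them). In cells of the Fabp4 gate alone against cells of no gate, the ratios were 1.04 and 1.08.

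Thbs2 and Thbs3 were spread more evenly over fibroblasts than Thbs4 or Tnc, but not equally over the gates. Among the 5 gates Thbs2 was highest in pubertal Crabp1 cells, 561 CPM against 362 CPM in the adult (ratio 0.645, 0.617 to 0.674). In Pi16+Dpp4+ cells Thbs2 stood at 479 and 370 CPM, 1.78-fold and 1.29-fold over the other Pdgfra+ cells. Its stage ratio was below 1 in each of the 5 gates, from 0.645 to 0.924. Thbs3 ranged from 35.6 and 36.6 CPM in Crabp1 cells to 91.3 and 102 CPM in Bmp5 cells, with stage ratios between 0.912 and 1.12 over the 5 gates. Against the other Pdgfra+ cells this was 0.466-fold and 0.502-fold in Crabp1 cells, and 1.21-fold and 1.58-fold in Bmp5 cells.

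**Figure D4:**
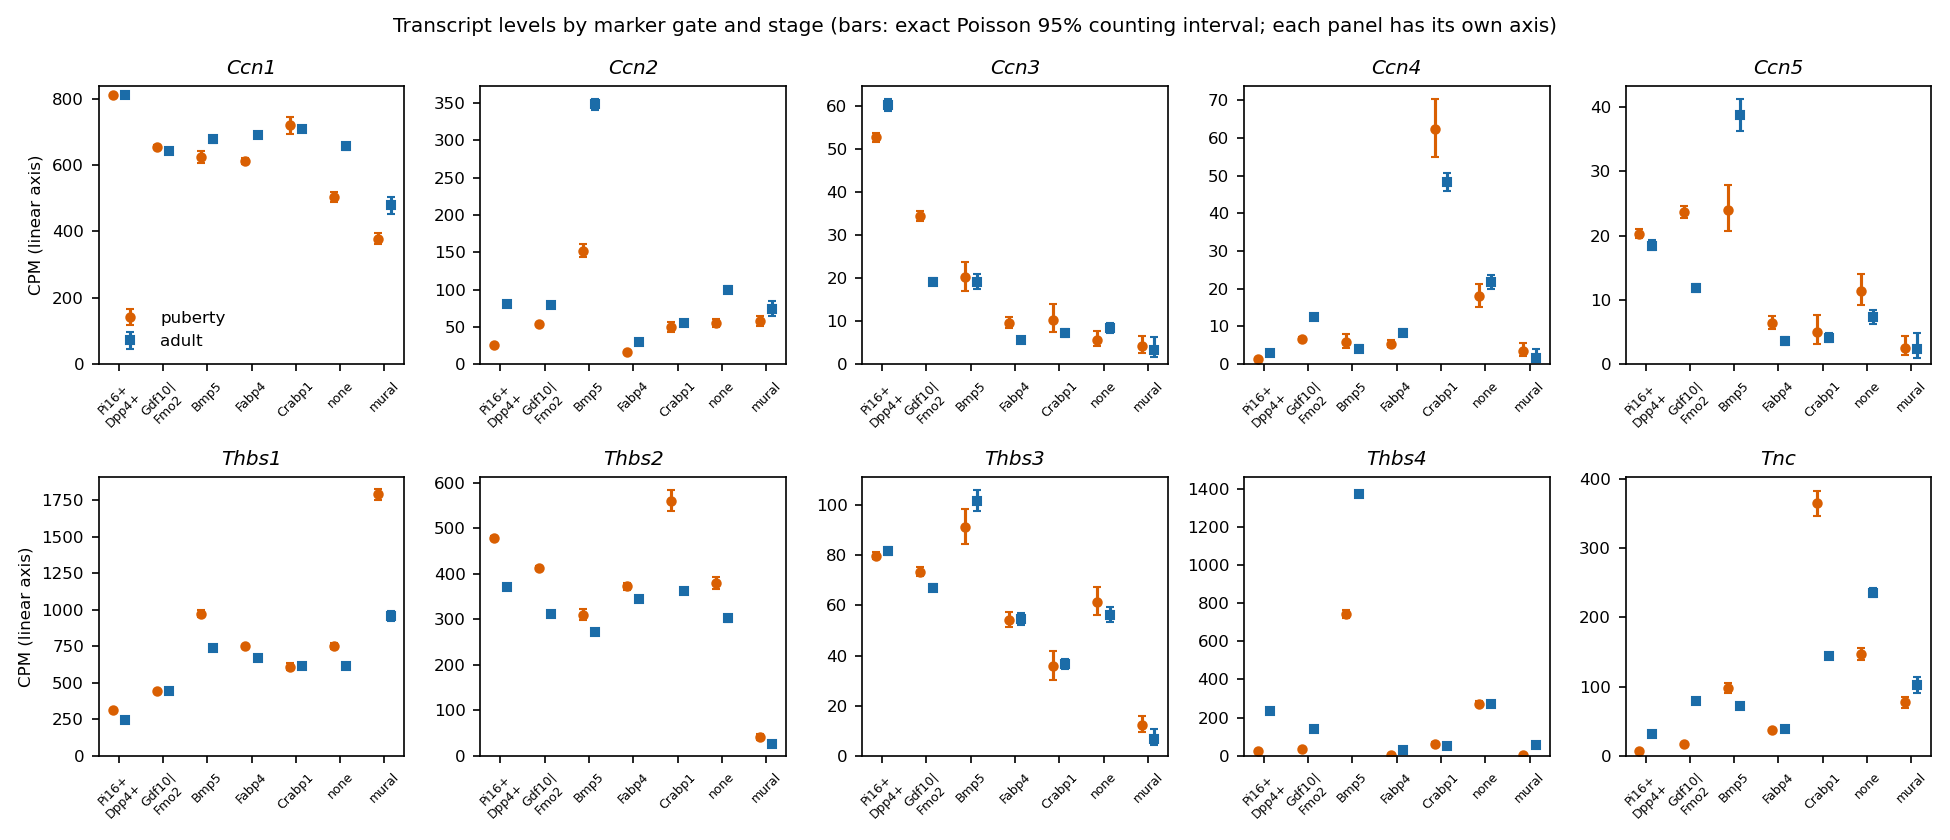
CPM (linear axis, one scale per panel) of each member in the 5 marker gates, in Pdgfra+ cells of no gate and in mural cells, for the pubertal (circles) and adult (squares) library with exact Poisson 95% counting intervals. Thbs4 and Ccn2 peak in Bmp5 cells, Ccn4 and pubertal Tnc in Crabp1 cells, Ccn3 in Pi16+Dpp4+ cells and Thbs1 in mural cells.

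Thbs1 was the member most raised in mural cells, at 1789 CPM at puberty and 957 CPM in the adult against 384 and 418 CPM in Pdgfra+ cells, 4.66-fold (4.56 to 4.76) and 2.29-fold (2.20 to 2.37). Of the members tested, 3 of 9 at puberty (30.1% of genes) and 1 of 10 in the adult (29.1%) were 1.5-fold higher in mural cells, and 6 of each (25.5% and 22.4%) were lower. The pubertal level of Thbs1 was the higher, a stage ratio of 0.535 (0.512 to 0.558). Of the 7 members tested there, Thbs1, Thbs2 and Thbs3 were 1.5-fold lower in the adult, beside 6.17% of all genes, and Thbs4 was higher (17.0%). Cells with Myh11 and no Rgs5 (478 and 184 cells) had Thbs1 at 1773 and 1030 CPM. The few cells with Rgs5 and no Myh11 (27 and 65) had it at 234 and 185 CPM. The Rgs5 part also held Thbs2 at 179 and 102 CPM, against 44.9 and 18.8 CPM in the Myh11 part. It was therefore not read as pericytes alone, and the part of fibroblast RNA in this contrast was not tested. Thbs2, Thbs3, Ccn3 and Ccn5 were below 50 CPM in mural cells of both libraries.

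The mural gate was not clean in either library. The summed fibroblast markers (Dcn, Lum, Col1a1, Col1a2 and Igfbp5) stood there at 4867 CPM at puberty and 2526 CPM in the adult. The part of such fibroblast RNA in the mural stage ratios of Thbs2 and Thbs3 was not tested. The summed epithelial markers Epcam, Krt8, Krt18 and Krt14 stood at 577 CPM in the adult gate against 29.6 CPM at puberty, in 30 and 8 cells respectively. Leaving those cells out, as added after the values were seen, gave a Thbs1 stage ratio of 0.586. Thbs4 in mural cells read 1.37 and 55.2 CPM, but 151 of the 162 adult UMIs came from 1 cell with 174 UMIs of Dcn, 1 of Rgs5 and none of Myh11. Without the highest cell of each library the adult level was 3.76 CPM and the pubertal one 1.18 CPM. Tnc was found at 77.1 and 102 CPM in mural cells, and 84.3 CPM in the adult without its highest cell.

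The share of cells with a UMI was compared after thinning each cell to 3000 UMIs, which left out shallower cells and kept 18542 and 20573 Pdgfra+ cells. Median depths before thinning were 12187 and 11265 UMIs in Pdgfra+ cells, and 4982 and 5158 UMIs in 54 and 136 Pdgfra-negative cells with Pax7 or Myf5, muscle satellite markers, which served as a background with 47 and 121 cells after thinning. Thbs4 was found in 1.91% (1.72 to 2.12) and 7.84% (7.47 to 8.21) of Pdgfra+ cells, unthinned 2.77% and 10.5%, with 0 background cells in either library. Taken as 3 cells over the number of background cells, a rough limit for a count of 0, this allows up to 6.38% and 2.48%. The adult share lay above that limit. The pubertal one did not, but 47 background cells are too few to decide on so low a share. In Bmp5 cells the Thbs4 shares were 25.8% (22.3 to 29.6) and 44.7% (42.4 to 47.0).

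Tnc was found in 1.56% (1.39 to 1.75) and 11.0% (10.5 to 11.4) of Pdgfra+ cells, unthinned 2.79% and 16.3%, against 10.6% and 1.65% of satellite-marked cells. Ccn2 was found in 5.31% and 9.98%, unthinned 11.2% and 17.6%, against 4.26% and 19.8%. Satellite-marked cells held Tnc at 109 CPM at puberty and Ccn2 at 131 and 483 CPM, above the fibroblast levels, so they are no measure of free RNA for these genes. Ccn4 was found in 1.20% and 3.69% of Pdgfra+ cells, unthinned 3.76% and 9.88%, and in 6.38% and 0.826% of satellite-marked cells. At puberty the satellite-marked cells held Ccn4 at 18.8 CPM against 4.70 CPM in Pdgfra+ cells, so there they are no measure of its free RNA either.

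Some members met in the same cells more often than others. At 3000 UMIs per cell, Ccn2 and Thbs4 occurred together in 129 pubertal and 771 adult Pdgfra+ cells, 6.86 and 4.79 times the number that the product of their shares gives. Thbs4 and Tnc met in 74 and 271 cells, 13.4 and 1.53 times that number, and Ccn4 and Tnc in 40 and 225 cells, 11.5 and 2.70 times. Ccn3 and Ccn5, both higher in Pi16+Dpp4+ cells, met in 71 and 27 cells, 1.06 and 0.784 times. Ccn3 and Tnc met in 6 and 17 cells, 0.223 and 0.124 times that number. Ccn1 met the other 9 members at 0.930 to 1.18 times in either library. These are descriptions within 2 libraries, as cells of 1 library are not replicates.

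Across the 14 sums of gate and stage, the genes with the pattern most like each member were listed by Pearson correlation of log2(CPM + 1), with gates sharing libraries and some cells. Cilp was the most like Thbs4 (r = 0.97), followed by C1qtnf3 and Hmcn2. Sema5a was the most like Tnc (0.96), St8sia2 like Ccn4 (0.97), Adcy2 like Ccn3 (0.98), Pam like Ccn5 (0.96) and Lhfp like Ccn2 (0.93). Dpt, encoding dermatopontin, was the most like Thbs3 (0.99) and Adamts19 like Thbs2 (0.99). Pofut1, an O-fucosyltransferase, was the most like Ccn1 (0.94) and Dnttip2 like Thbs1 (0.96). Each is the highest of 8214 candidate genes. The sums include mural cells, where Thbs2 (40.8 and 25.2 CPM) and Thbs3 (12.4 and 6.82 CPM) were low, so differences between fibroblasts and mural cells enter r.

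Of the family relatives, only Tnxb, tenascin X, reached 10 CPM in Pdgfra+ cells, at 539 and 611 CPM. It was 1.35-fold higher in the adult in Pi16+Dpp4+ cells and 1.46-fold in Bmp5 cells. Ccn6, Comp, Tnr and Tnn were below 0.3 CPM in Pdgfra+ cells of both libraries.

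Among 15 of 18 tested receptor genes of these proteins (integrin subunits, Cd47, Lrp1, Sdc4, Notch1 and others), 2 were 1.5-fold higher in the adult and none lower (2 lower under TMM scaling). Over all genes the shares were 12.0% higher and 5.09% lower, or 8.07% and 7.39% under TMM scaling. The list's median log2 ratio was 0.24 against 0.13 over all genes. Itga8, the partner of integrin β1 that binds tenascin C, stood at 8.88 and 43.9 CPM (ratio 4.94) and Notch1 at 4.92 and 16.4 CPM (3.34). The lowest were Itgav, at 237 and 162 CPM, and Itga5, the fibronectin receptor, at 280.3 and 192 CPM.

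Of the YAP and TEAD target list without the members, 15 of 20 were tested, with 4 higher, 2 lower and a median log2 ratio of 0.14, beside 12.0% higher, 5.09% lower and a median of 0.13 over all genes. Dock5 (5.09 and 23.1 CPM) and Arhgef17 (12.3 and 26.2 CPM) had the highest ratios, and Igfbp3 (402 and 156 CPM) and Crim1 (138 and 78.5 CPM) the lowest. Ccn1 and Ccn2, both of this kind, had ratios of 0.965 and 2.34.

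Immediate early and stress genes, which can be induced while tissue is dissociated, summed to 31566 CPM at puberty and 36723 CPM in the adult. Of 21 tested, 5 were 1.5-fold higher and none lower in the adult (3 lower under TMM scaling), with a median log2 ratio of 0.31. Over all genes the shares were 12.0% higher and 5.09% lower, or 8.07% and 7.39% under TMM scaling. The heat shock genes Hspa1b (36.8 and 295 CPM) and Hspa1a (46.9 and 248 CPM) had the highest ratios, and Klf4 (0.704) and Klf2 (0.710) the lowest. Ccn1 belongs to the immediate early class by its biology, and Thbs1 is also serum-inducible. The part of dissociation in the levels of the members was not tested.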

How the data were processed

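Count matrices (whole UMI counts per gene and cell) of the 2 libraries were used as deposited by the authors, who made them from 10x 3′ libraries with Cell Ranger 8.0.1 and mm10 according to the submitters' processing notes. The gene annotation behind the counts is not given in the sources used here, and 31961 of the 33696 gene identifiers occur in GENCODE M21. Members and lists were chosen with earlier results of these data known. Libraries held 255274670 UMIs in 21688 barcodes (puberty) and 259549498 in 23183 (adult).

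Cells with at least 500 genes and at most 10% mitochondrial UMIs were kept, and doublets were left in. Removal of the Scrublet scores (scanpy 1.11.5) above a cut at 0.4% per 1000 cells, which takes out 8.68% and 9.27% of cells, was an alternative. UMIs were summed per gate and library and divided by that sum (CPM). Intervals were 95% exact Poisson for CPM, conditional binomial for ratios and Clopper-Pearson for shares. They cover counting error only. Genes with 10 CPM or more on either side of a comparison were tested against the 1.5-fold limit. A gene named here is a member, a family relative, one of the 2 highest or 2 lowest ratios of another list at 10 CPM or more, or one of the 3 genes most like a member. The leading gene of each such trio was printed for all members, and the others for Thbs4 alone.

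Alternatives were TMM scaling (edgeR 4.0.16, R 4.3.3), the mean of each cell's CPM, a fixed make-up of gates, stricter cells and gates, other depths of thinning and a 2-fold limit. The checks without Myh11 or Rgs5 cells, without epithelial UMIs, without the highest mural cell and at the adult make-up were added after the data were seen. The calls were also run on simulated counts with 200 planted 2-fold changes and counting error alone. All 200 were recovered with 0 false calls, which says nothing of differences between mice or libraries. Calculations used Python 3.11.15 with numpy 2.4.6, scipy 1.17.1 and pandas 2.3.3.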

Additional observations from a re-analysis of the deposited data

Results flagged for a closer look

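Tnc differed between stages in opposite directions between gates of fibroblasts, which was not tested with 1 library per stage. The adult over puberty ratio was 4.96 in Pi16+Dpp4+ cells and 4.66 in Gdf10 or Fmo2 cells, but 0.396 in Crabp1 cells. The gates overlap, and in cells of exactly 1 gate the ratios were 4.13, 5.95 and 0.270. Only 289 pubertal cells held Crabp1, and the mean of each cell's CPM gave 0.556 there. The ratio was also below 1 in Bmp5 cells, at 0.731.

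Ccn5 also went in opposite directions, again untested, with a ratio of 1.61 in Bmp5 cells and 0.498 in Gdf10 or Fmo2 cells. In cells of exactly 1 gate these were 1.69 and 0.912, so that only the first kept its distance from 1.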

How the results depend on the processing

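No paired analysis was possible because the 2 stages share only 1 replicate number and each has a single library. Of 10 members, 4 were 1.5-fold higher in the adult in Pdgfra+ cells under TMM scaling, the mean of each cell's CPM, at least 2 Pdgfra UMIs, at least 1000 genes, at most 5% mitochondrial UMIs, without the cells with the most genes, without doublets, without Myh11 or Rgs5 cells and at a 2-fold limit. The count was 3 at the pubertal and 2 at the adult make-up, where Ccn4 (0.892) and Tnc (0.987) turned below 1. Of these settings, shares over all genes were computed for TMM scaling and the 2-fold limit alone. The other counts, those at a fixed make-up included, have no background beside them. TMM scaling made 1 member at least 1.5-fold lower (Ccn5, 0.660) in place of 0, and likewise 2 receptor genes and 3 immediate early genes in place of 0. The share of all genes that were lower was 7.39% under that scaling in place of 5.09%.

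In cells of exactly 1 gate the stage ratio turned for Ccn3 in Fabp4 cells (1.36) and Ccn4 in Gdf10 or Fmo2 cells (0.893), and without doublets for Thbs4 in Fabp4 cells (0.898), where 1 pubertal cell held most UMIs. Against cells of no gate, cells of 1 gate turned for Ccn3 in adult Bmp5 cells (1.496), pubertal Ccn4 (0.901) and Ccn5 (0.620) in Gdf10 or Fmo2 cells, Thbs1 in Crabp1 cells (0.846 and 0.967), Tnc in pubertal Fabp4 cells (0.416) and Tnc in adult Crabp1 cells (0.657). The cause was not tested. The cells of no gate themselves held Tnc at 147 and 236 CPM and Thbs1 at 750.1 and 612 CPM. Values of the whole mural gate and of the whole pubertal Crabp1 gate rest on 289 to 783 cells per library. Values of their parts rest on fewer. At puberty 27 cells had Rgs5 and no Myh11, and 122 passed the Crabp1 gate alone. In the whole mural gate Ccn3, Ccn4 and Ccn5 were below 10 CPM.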
